A study of Mus musculus with 8 samples.

Results

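The genes described here are 10 that are recurrently mutated in human myeloid neoplasms, often alongside JAK2 or EZH2 mutations: Asxl1, Tet2, Dnmt3a, Idh1, Idh2, Srsf2, Sf3b1, U2af1, Cbl and Sh2b3. They were taken by gene symbol from the 20887 genes that the probes of the array could be matched to, and each was read from 1 probe, that with the highest mean processed signal over the 8 arrays. All 10 passed the filter on dim probes and were among the 13183 genes tested. Expression was measured in LSK cells, the Lineage-negative, c-Kit-positive, Sca-1-positive fraction of marrow that holds the stem cells, and in MEP, the megakaryocyte and erythroid progenitors. The donor marrow came from C57BL/6 mice of 4 genotypes, Cre-ERT2 (WT below), Ezh2flox/flox;Cre-ERT2 (Ezh2-deleted), JAK2V617F;Cre-ERT2 (JAK2V617F) and JAK2V617F;Ezh2flox/flox;Cre-ERT2 (double-mutant), so that all groups carried Cre-ERT2, a tamoxifen-activated recombinase. It was given to CD45.1+ wild-type recipients after lethal irradiation, Ezh2 was deleted 4 weeks later and cells were sorted from the recipients 2 months after transplantation. Each of the 8 groups, a genotype in a cell type, had 1 array and no replicate. How many recipients went into a sort was not given in the sources used here, nor was the promoter that drives the JAK2V617F allele.

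The 10 genes fall into 4 roles. DNMT3A writes DNA methylation and TET2 oxidises it, using the 2-oxoglutarate that IDH1, in the cytosol, and IDH2, in mitochondria, make from isocitrate; mutant IDH enzymes make 2-hydroxyglutarate instead, which inhibits TET2. ASXL1 is the cofactor of the histone H2A deubiquitinase BAP1 and is also linked to PRC2, the polycomb complex whose catalytic subunit is EZH2. SF3B1 and U2AF1 select the 3′ splice site, and SRSF2 is an SR protein that binds exonic enhancers. CBL is a ubiquitin ligase that removes activated cytokine receptors, and SH2B3 (LNK) is an adaptor that restrains JAK2 signalling below cytokine receptors. EZH2 places the repressive methyl marks of PRC2 on histone H3, and the V617F substitution makes the JAK2 kinase active without cytokine in myeloproliferative neoplasms.

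Levels are log2 signals, each set against its own array's 75th percentile. On an array, 39.8% to 48.8% of the probes were well above background. Marker lists for the cell types were chosen with earlier results of these data known, so they do not check the labels independently. Of 12 erythroid and MEP genes 12 were higher in MEP (median log2 difference 5.30). Of 11 stem cell and LSK genes 9 were lower (median -2.04). Ezh2 itself was read at 3.33, 3.20, 3.65 and 3.41 on the WT, Ezh2-deleted, JAK2V617F and double-mutant LSK arrays and at 3.97, 3.86, 4.04 and 3.43 on the MEP arrays, a difference with deletion of -0.27 (limma adjusted p = 0.404). Whether its probe lies in the deleted exons was not determined here, so it does not check the genotype. Xist, the X-inactivation RNA, was read at 1.39 to 2.85 where Ezh2 was deleted and at no more than -3.23 where it was intact, and Y-linked Eif2s3y was well above background on 4 of 4 intact and 0 of 4 deleted arrays, so Ezh2 deletion and the sex of the marrow cannot be told apart. The arrays share 1 slide, with LSK cells in one row, MEP in the other and a column for each genotype; position on the slide and group cannot be told apart. In sorted bulk cells, fewer cells of a type and less RNA per cell cannot be told apart.

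RefSeq promoters (assembly GRCm38.p6, 250 bases before to 50 after a start) were found for all 10 genes, 14 in all. They held 9 (Sh2b3) to 57 (Tet2) CG dinucleotides, against a median of 7 over all 32851 promoters. None of the 14 held the GATA motif AGATAA, the STAT motif TTCNNNGAA or the ETS motif CCGGAAGT on either strand, and these stood in 11.2%, 8.30% and 3.89% of all promoters. The E-box CACGTG, in 7.15% of all promoters, was found in those of Sh2b3 and of the most downstream start of Dnmt3a, both genes that were lower in MEP. These are shown beside the promoter of Srsf2, the gene of the 10 that was higher in MEP, which has none of the 4 motifs. Capitals mark the E-box. The promoters of Tet2, Idh1, Idh2 and Cbl, which were also lower in MEP, and the other starts of Dnmt3a held none of the 4 motifs either. A link between motif and direction was not tested. Which start of Dnmt3a these cells use was not measured.
Dnmt3a, most downstream start, chr12:3891494-3891793, plus strand: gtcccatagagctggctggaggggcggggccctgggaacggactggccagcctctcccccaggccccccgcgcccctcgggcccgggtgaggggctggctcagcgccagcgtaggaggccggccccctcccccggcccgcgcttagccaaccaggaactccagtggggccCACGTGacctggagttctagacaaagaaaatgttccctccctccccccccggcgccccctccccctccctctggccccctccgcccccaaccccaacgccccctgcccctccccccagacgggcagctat
Sh2b3, chr5:121836055-121836354, minus strand: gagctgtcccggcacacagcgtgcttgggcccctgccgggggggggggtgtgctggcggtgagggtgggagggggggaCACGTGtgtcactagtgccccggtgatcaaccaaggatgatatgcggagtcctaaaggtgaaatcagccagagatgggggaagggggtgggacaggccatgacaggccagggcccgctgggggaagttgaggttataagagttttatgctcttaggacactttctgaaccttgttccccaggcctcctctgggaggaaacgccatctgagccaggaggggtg
Srsf2, chr11:116853045-116853344, minus strand: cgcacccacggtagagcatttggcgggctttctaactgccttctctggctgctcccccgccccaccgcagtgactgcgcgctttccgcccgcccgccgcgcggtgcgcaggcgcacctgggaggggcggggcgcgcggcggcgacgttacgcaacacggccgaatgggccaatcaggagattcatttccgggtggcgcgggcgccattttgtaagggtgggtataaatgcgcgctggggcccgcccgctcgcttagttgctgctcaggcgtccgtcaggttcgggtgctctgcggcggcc
The E-box of Dnmt3a begins 80 bases before the start and that of Sh2b3 172 bases before it.

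The larger differences were between the cell types. Dnmt3a, Idh1, Sh2b3, Cbl, Idh2 and Tet2 were lower in MEP than in LSK cells, Srsf2 was higher, and Sf3b1, U2af1 and Asxl1 did not pass the test. Of the 10 genes 7 were thus called by limma at an adjusted p under 0.05 (4 arrays against 4, the genotypes as covariates), where 41.0% of all genes were called. In the lower direction 6 of 10 were called against 20.3% of all genes, and in the higher direction 1 of 10 against 20.7%. The median log2 difference was -0.76 over the 10 genes and 0.12 over all genes tested, and the latter falls to 0.006 with quantile normalization; relative to the 0.12, Dnmt3a differed by -1.93 and Srsf2 by 0.48. For the 6 lower genes every MEP array lay below every LSK array, which held for 17.1% of all genes, and 0 of the 10 lay wholly higher in MEP, against 18.9%. Markers of other cell types also differed between LSK cells and MEP. Of 4 tested mast cell and basophil markers 3 were called lower in MEP (median -4.03), with a summed level of 3.05 to 4.91 on LSK and -0.091 to 1.07 on MEP arrays. Of 10 granulocyte markers 5 were called lower and 5 higher, with a summed level of 8.97 to 11.36 on LSK and 4.47 to 8.21 on MEP arrays. Called lower were also 1 of 3 monocyte markers (Csf1r), 2 of 6 B cell, 2 of 3 T and NK cell and 1 of 3 stromal and endothelial markers, and 2 of 7 megakaryocyte markers were called higher. Their part in the differences of the 10 genes was not tested.

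**Figure D1:**
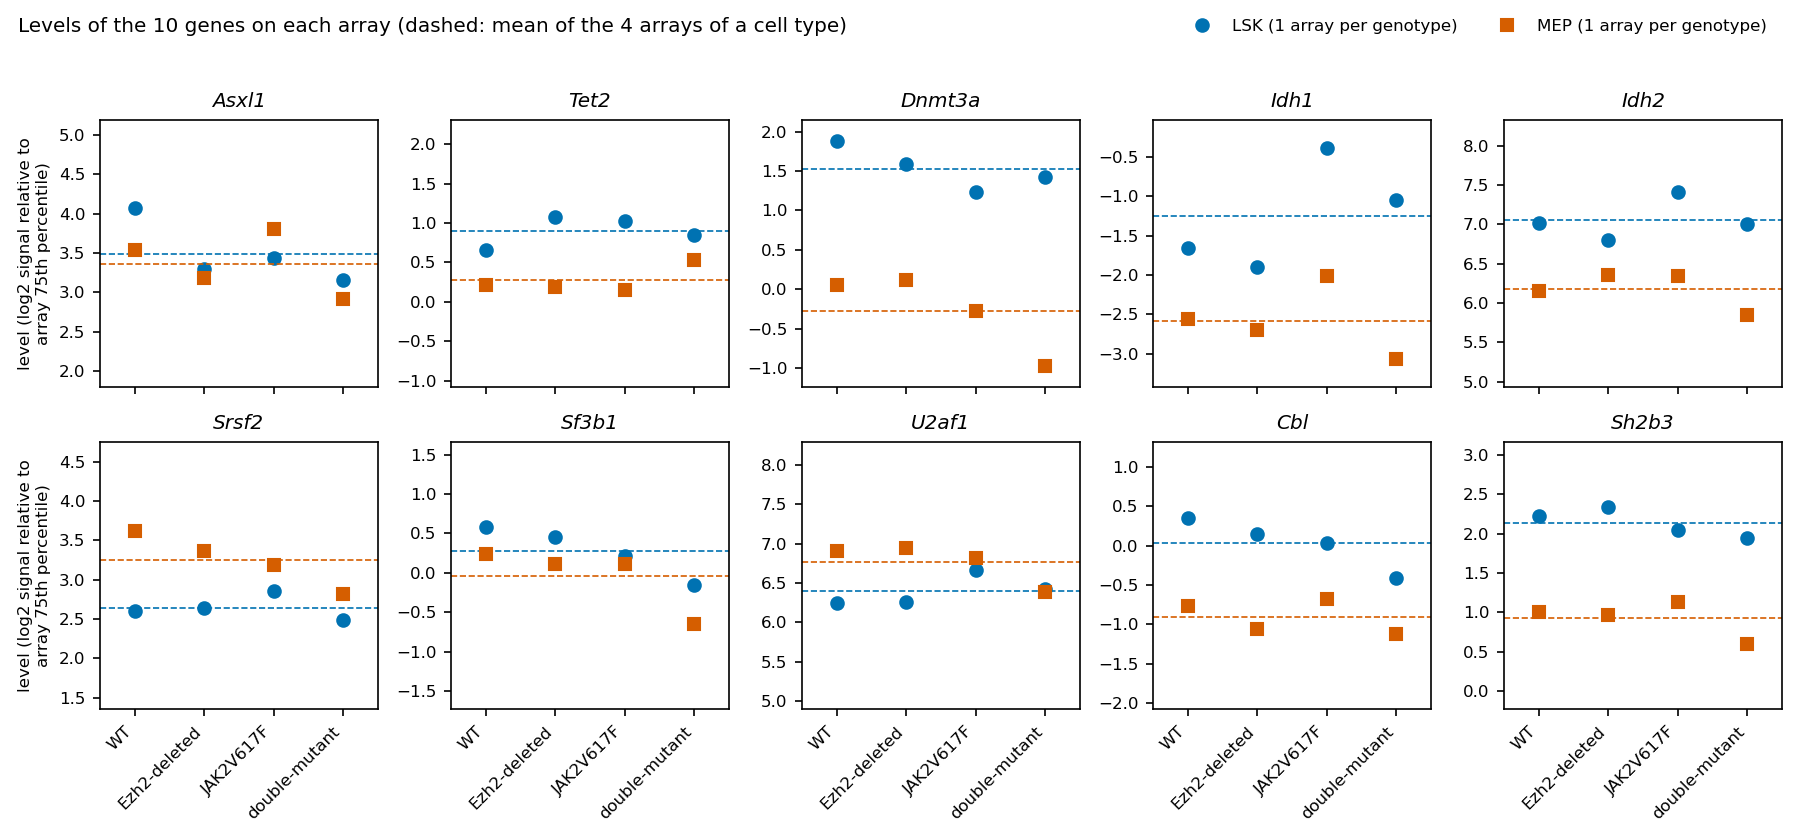
Level of each gene (log2 signal relative to the array's 75th percentile, vertical axis, the same span in every panel) on the 8 arrays, by genotype (horizontal axis) and cell type (circles LSK, squares MEP), with dashed lines at the mean of 4 arrays. The MEP squares of Dnmt3a, from -0.98 to 0.11, lie below all of its LSK circles, from 1.23 to 1.89, whereas those of Asxl1 overlap.

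Of the genes that write and remove DNA methylation, Dnmt3a, the de novo methyltransferase, showed the widest gap. Dnmt3a was read at 1.89 (WT), 1.59 (Ezh2-deleted), 1.23 (JAK2V617F) and 1.42 (double-mutant) in LSK cells, and at 0.06, 0.11, -0.28 and -0.98 in MEP in the same order. The cell types did not overlap, the WT LSK array was the highest and the double-mutant MEP array the lowest. The log2 difference was -1.80 ± 0.19 (SE), a 3.49-fold lower level in MEP (limma adjusted p = 3.1e-04). Tet2, a methylcytosine dioxygenase, was read at 0.66, 1.07, 1.02 and 0.85 in LSK cells and at 0.21, 0.18, 0.15 and 0.53 in MEP. The groups did not overlap, but only 0.13 parted the double-mutant MEP array from the WT LSK array. Tet2 differed by -0.63 ± 0.16 (limma adjusted p = 0.0175), and the call was lost without the Ezh2-deleted LSK, the JAK2V617F LSK or the Ezh2-deleted MEP array (adjusted p = 0.0697, 0.0592 and 0.0583). A second probe of Tet2 gave a difference of -0.89 ± 0.19.

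Among 13 other genes of DNA methylation and hydroxymethylation, 3 were called lower in MEP, 1 higher and 9 were not called. The count called lower was near the share of all genes, 20.3%, and 20.7% of all genes were called higher. The median log2 difference of the list was -0.18, and it lay between -0.36 and -0.16 under other scalings. Tet1, a dioxygenase of the same family, was lower (-1.28 ± 0.24), as was Dnmt3b, the other de novo methyltransferase (-0.85 ± 0.16). Dnmt3l, the regulatory partner of both methyltransferases, was called lower too (limma adjusted p = 0.00406). It was well above background on 2 LSK arrays and on 0 MEP arrays, so no fold is given. With its MEP levels raised to the lowest level well above background on each array, Dnmt3l was not lower in MEP. Its call thus rests on MEP readings that were not well above background. Mbd2, a reader of methylated DNA, was higher by 1.32 ± 0.19. The maintenance methyltransferase Dnmt1 was read at 2.18 to 2.78 in LSK cells and 1.56 to 2.62 in MEP, overlapping ranges with a difference of -0.26 ± 0.19 that was not called.

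Both isocitrate dehydrogenases that use NADP were lower in MEP. Idh2, the mitochondrial enzyme, was read at 7.02, 6.81, 7.41 and 7.01 in LSK cells and at 6.16, 6.36, 6.34 and 5.85 in MEP. The groups did not overlap, and the JAK2V617F LSK array was the highest. The difference was -0.88 ± 0.18, or 1.85-fold (limma adjusted p = 0.00758). Idh1, the cytosolic enzyme, was read at -1.66, -1.89, -0.39 and -1.04 in LSK cells and at -2.57, -2.70, -2.01 and -3.06 in MEP, again without overlap. It differed by -1.34 ± 0.26 (limma adjusted p = 0.00536). Idh1 was the one gene of the 10 not above background on all 8 arrays: it was well above it on all LSK arrays and on 2 of 4 MEP arrays, not on the Ezh2-deleted and double-mutant ones. With normexp background correction its difference was -0.64, still called (adjusted p = 0.0137).

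Of 15 other genes of isocitrate, 2-hydroxyglutarate and 2-oxoglutarate metabolism, 6 were called higher in MEP, 1 lower and 8 were not called. Of all genes, 20.7% were called higher and 20.3% lower. The median was 0.44, against 0.12 for all genes, and lay between 0.21 and 0.44 under other scalings. The higher ones included Idh3a, the catalytic subunit of the NAD-dependent isocitrate dehydrogenase of the citric acid cycle (0.86 ± 0.19), and Dlst and Dld, subunits of the 2-oxoglutarate dehydrogenase complex (0.82 ± 0.17 and 0.73 ± 0.17). Idh3a was read at 3.85 to 4.37 in LSK cells and 4.68 to 5.21 in MEP, so that its arrays did not overlap, in the direction opposite to Idh1 and Idh2. Glud1, which makes 2-oxoglutarate from glutamate, was lower (-0.83 ± 0.16). With quantile normalization 4 were called higher, and Cs and Idh3b were not.

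The 2 negative regulators of cytokine signalling were lower in MEP. Sh2b3 was read at 2.22, 2.34, 2.05 and 1.95 in LSK cells and at 1.01, 0.97, 1.14 and 0.60 in MEP. A gap of 0.81 parted the lowest LSK array from the highest MEP array. Sh2b3 differed by -1.21 ± 0.16, or 2.32-fold (limma adjusted p = 9.7e-04). Cbl was read at 0.36, 0.15, 0.03 and -0.41 in LSK cells and at -0.77, -1.05, -0.67 and -1.12 in MEP. The cell types did not overlap, and the double-mutant array was the lowest in each. Cbl differed by -0.94 ± 0.16, or 1.92-fold (limma adjusted p = 0.00323). Of 13 genes of the CBL and SH2B families and their partners, 4 were called lower, 0 higher and 9 were not called. Of all genes, 20.3% were called lower and 20.7% higher. The median of the list was -0.16, from -0.39 to -0.16 under other scalings. Lower were Sh2b2 (APS), another adaptor of the SH2B family (-2.02 ± 0.33), Pik3r1, the regulatory subunit of PI3 kinase (-0.69 ± 0.21), Cblb, another CBL ligase (-0.67 ± 0.18), and Crk, an adaptor that binds CBL (-0.64 ± 0.15).

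The 3 splicing factors did not move together. Srsf2 was read at 2.60, 2.64, 2.85 and 2.48 in LSK cells and at 3.62, 3.37, 3.18 and 2.82 in MEP. Each MEP array was higher than the LSK array of its genotype, by 1.02 for WT and by 0.33 for JAK2V617F, but the double-mutant MEP array lay just under the JAK2V617F LSK array. Srsf2 differed by 0.60 ± 0.17 (limma adjusted p = 0.0281). The call was lost on leaving out the WT, the Ezh2-deleted or the double-mutant LSK array or the WT or Ezh2-deleted MEP array (adjusted p = 0.104, 0.0787, 0.0639, 0.0960 and 0.0862). The second Srsf2 probe gave 0.58 ± 0.16.

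U2af1 was read at 6.24, 6.25, 6.67 and 6.43 in LSK cells and at 6.91, 6.95, 6.82 and 6.38 in MEP. The WT and Ezh2-deleted arrays differed between the cell types by 0.67 and 0.69, the JAK2V617F arrays by 0.15 and the double-mutant arrays by -0.04. The fitted difference of 0.37 ± 0.19 was not called (limma adjusted p = 0.153). Sf3b1 was read at 0.58, 0.45, 0.21 and -0.16 in LSK cells and at 0.24, 0.12, 0.11 and -0.65 in MEP. Its MEP array was the lower one in all 4 genotypes, but the ranges overlapped and the difference of -0.32 ± 0.16 was not called (limma adjusted p = 0.153).

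The counts of splicing genes called higher were near the 20.7% of all genes. Of 19 genes of the U2 snRNP and 3′ splice site recognition, 4 were called higher, 0 lower and 15 were not called, with a median of 0.32 that fell to 0.13 under quantile normalization. They were Phf5a (0.88 ± 0.21), Sf3b5 (0.61 ± 0.18), both partners of SF3B1 in the SF3b complex, Snrpa1 (0.73 ± 0.18) and Snrpb2 (0.58 ± 0.19), proteins of the U2 particle. Of 16 SR protein genes and their regulators, 4 were called higher, 1 lower and 11 were not called, with a median of 0.36. Srsf7 was higher by 1.00 ± 0.25, Srsf10 by 0.57 ± 0.16, Srsf3 by 0.55 ± 0.17 and Srsf6 by 0.51 ± 0.15, while Srpk2, a kinase that phosphorylates SR proteins, was lower (-1.04 ± 0.18). Under quantile normalization 2 of the U2 list and 3 of the SR list were called higher, and Sf3b5, Snrpb2, Srsf3 and Srsf6 were not.

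Asxl1 was read at 4.07, 3.30, 3.44 and 3.15 in LSK cells and at 3.54, 3.19, 3.81 and 2.92 in MEP. The ranges overlapped, and the MEP array was the higher one in the JAK2V617F genotype alone (0.36). The difference of -0.13 ± 0.18 was not called (limma adjusted p = 0.585). Of 10 genes of the ASXL and BAP1 deubiquitinase complex 1 was called, Mbd6 (-0.72 ± 0.18), and 9 were not, where 41.0% of all genes were called. Bap1 was read at 2.63 to 2.87 in LSK cells and 2.96 to 3.23 in MEP without a call (limma adjusted p = 0.103).

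Of 38 other genes recurrently mutated in myeloid neoplasms 4 were called lower in MEP, 3 higher and 31 were not called. Of all genes, 20.3% were called lower and 20.7% higher, so both shares were smaller in this list. The list's median of 0.16 turned to -0.06 under quantile normalization, so it has no settled direction. The lower ones included Flt3, a receptor tyrosine kinase of early progenitors, Cebpa, a granulocytic transcription factor (-2.39 ± 0.27), and Etv6, an ETS repressor (-1.31 ± 0.21). Flt3 was not well above background on any MEP array and was at least 170-fold lower there (limma adjusted p = 4.5e-06). Bcorl1, a corepressor, was higher by 0.67 ± 0.17, Npm1, the nucleolar chaperone, by 0.65 ± 0.17, and Jak2 by 0.58 ± 0.17; under quantile normalization Npm1 was not called and 7 genes were called lower.

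**Figure D2:**
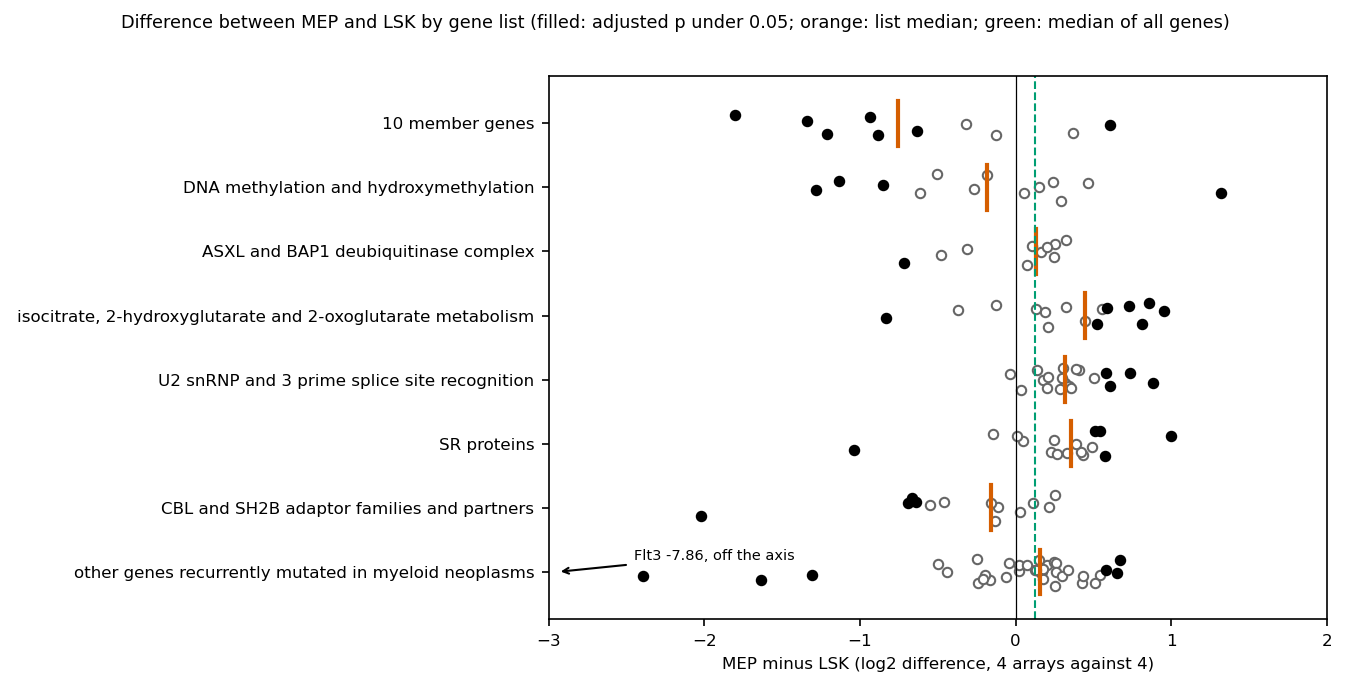
Difference between MEP and LSK (log2, horizontal axis; a negative value is lower in MEP) for the 10 genes and for every tested gene of the 7 lists around them; filled points passed the test at an adjusted p under 0.05, orange bars are list medians and the green dashes the median of all genes at 0.12. The median of the 10 genes is -0.76 and that of the metabolism list 0.44.

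The genes whose 8 levels ran closest to those of the 5 most different members were found among the 10468 genes above background on all arrays, each gene centred on its own mean. For Dnmt3a these were Aldh1l1 (root mean square difference of 0.17 log2) and P3h3 (0.20), for Idh1 Dnaaf3 (0.23) and Plin3 (0.23), and for Idh2 Btd (0.097) and Impa2 (0.10). For Sh2b3 they were Lrrfip1 (0.092) and Cnnm4 (0.11), and for Cbl Rab2a (0.081) and Cnot6l (0.091). Of the 10 genes, Sh2b3 and Cbl were each other's nearest among the 10 (0.21).

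Ezh2 deletion was not followed by a called change in any of the 10 genes. The limma test called 0 of 10 at an adjusted p under 0.05, against 0.705% of all genes, and 1 of 10 had an unadjusted p under 0.05, against 18.2%. The fitted difference was negative for 9 of 10 genes, where 60.7% of all genes were negative, and its median was -0.23, against -0.10 for all genes. The exception was Tet2 (0.15 ± 0.16). The 95% intervals, which are not adjusted for the number of genes tested, reached at most 0.60 to either side of a fitted difference (log2). Changes smaller than this could not be told from none in the gene with the widest interval, Idh1. The adjusted test is stricter: the interval of Asxl1, from -0.99 to -0.16, left out zero, yet Asxl1 was not called.

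Asxl1 had the lowest adjusted p of the 10. Ezh2-deleted arrays read 0.77 lower than WT in LSK cells and 0.35 lower in MEP, and double-mutant arrays read 0.29 lower than JAK2V617F in LSK cells and 0.89 lower in MEP. All 4 Ezh2-deleted arrays, at 2.92 to 3.30, lay below all 4 intact arrays, at 3.44 to 4.07, which was so for 3.11% of all genes. The fitted difference was -0.57 ± 0.18 and did not pass the test over all genes (limma adjusted p = 0.205). Asxl1, Idh1, Sf3b1 and Cbl were lower in all 4 pairs, as were 26.5% of all genes. Idh1 was not well above background on the Ezh2-deleted and double-mutant MEP arrays, so both of its MEP pairs include a reading near background.

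**Figure D3:**
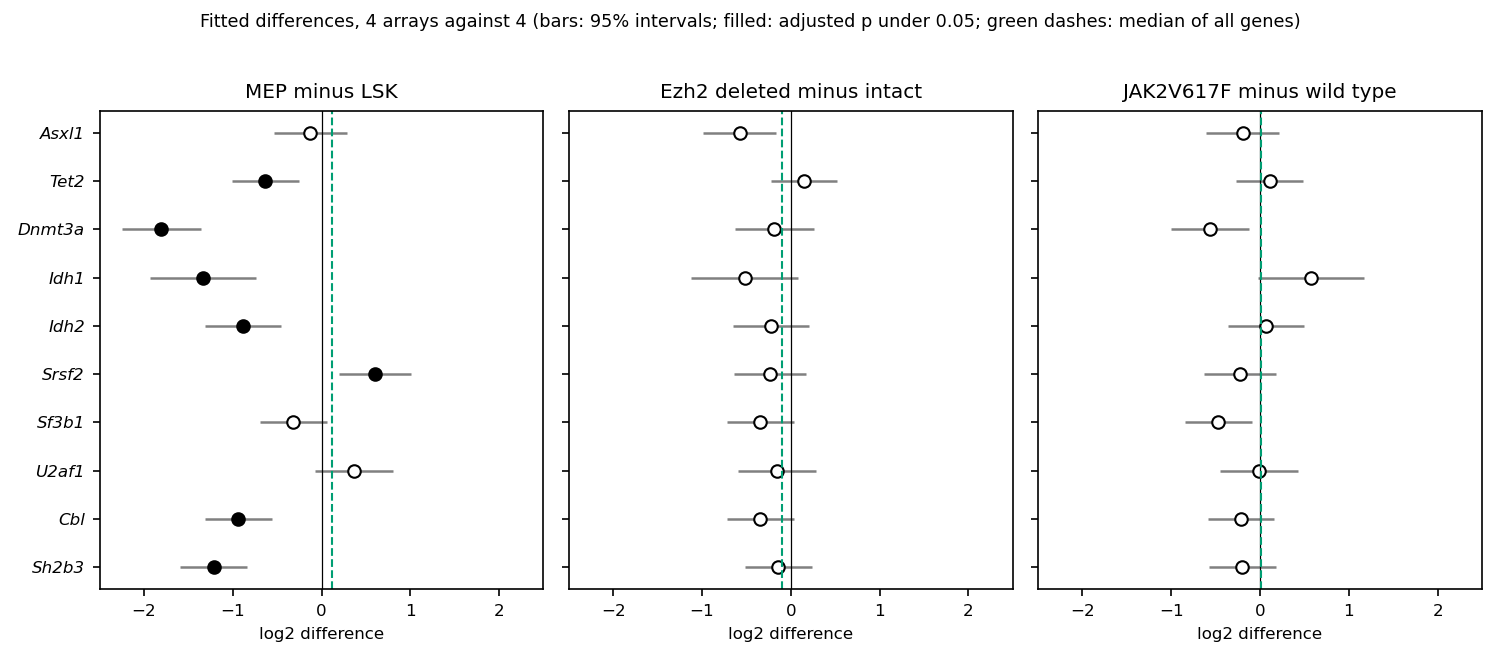
Fitted log2 differences for the 10 genes in the 3 main comparisons (4 arrays against 4, limma), with 95% intervals; filled points passed the test and green dashes mark the median of all genes. Filled points appear only between the cell types, where 7 of 10 passed.

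JAK2V617F was likewise not followed by a called change: 0 of 10 passed, against 0.311% of all genes, and 2 of 10 had an unadjusted p under 0.05, against 11.0%. These were Dnmt3a and Sf3b1, which were lower in all 4 pairs, as were 9.48% of all genes. Dnmt3a differed by -0.56 ± 0.19 (limma adjusted p = 0.358), with pairs at -0.66 (Ezh2 intact) and -0.17 (Ezh2 deleted) in LSK cells and at -0.34 and -1.09 in MEP. The pair of Ezh2-deleted MEP was thus the widest and that of Ezh2-deleted LSK cells the narrowest. Sf3b1 differed by -0.47 ± 0.16 (limma adjusted p = 0.372), with pairs at -0.37 and -0.61 in LSK cells and at -0.13 and -0.77 in MEP. In both genes the carriers and the wild-type arrays overlapped across the 8 arrays. Within LSK cells and within MEP the carriers lay below the wild-type arrays. For Sf3b1 in MEP the JAK2V617F array, at 0.111, lay just below the Ezh2-deleted array, at 0.116.

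Idh1 had the most positive value with JAK2V617F, 0.58 ± 0.26 (limma adjusted p = 0.471). Its pairs stood at 1.27 and 0.85 in LSK cells and at 0.56 and -0.37 in MEP, the last of arrays that were both not well above background. Within LSK cells the fitted difference was 1.06 ± 0.29 (limma adjusted p = 0.206), and the difference between LSK and MEP was 0.96 ± 0.41 (limma adjusted p = 0.448), so neither passed. U2af1 was higher in both LSK pairs (0.43 and 0.17) and lower in both MEP pairs (-0.09 and -0.56), and 17.6% of all genes had such opposite signs, either way round; the difference between cell types was not called (limma adjusted p = 0.481).

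Genes of other cell types differed with both genotypes too. The summed level of the B cell markers was 2.79 to 6.12 on Ezh2-deleted arrays and 1.53 to 4.33 on intact ones. Intact and deleted arrays read 4.10 and 6.12 in JAK2 wild-type LSK cells, but 4.33 and 4.44 in JAK2V617F LSK cells. In MEP they read 1.53 and 5.64 with wild-type JAK2, and 1.61 and 2.79 with JAK2V617F. Of 6 tested B cell markers 2 were called higher, while Pax5, Ms4a1 and Cd79a did not reach the filter. Of 3 T and NK cell markers 1, Gzma, was called higher. The summed level of the granulocyte markers was 7.29 to 11.36 on arrays with JAK2V617F and 4.47 to 9.51 on those without, with 4 of 10 called higher. With JAK2V617F 1 of 6 B cell markers, Blnk, was also called lower and 1 of 3 monocyte markers, Cx3cr1, higher. Their part in the values of the 10 genes was not tested.

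**Figure D4:**
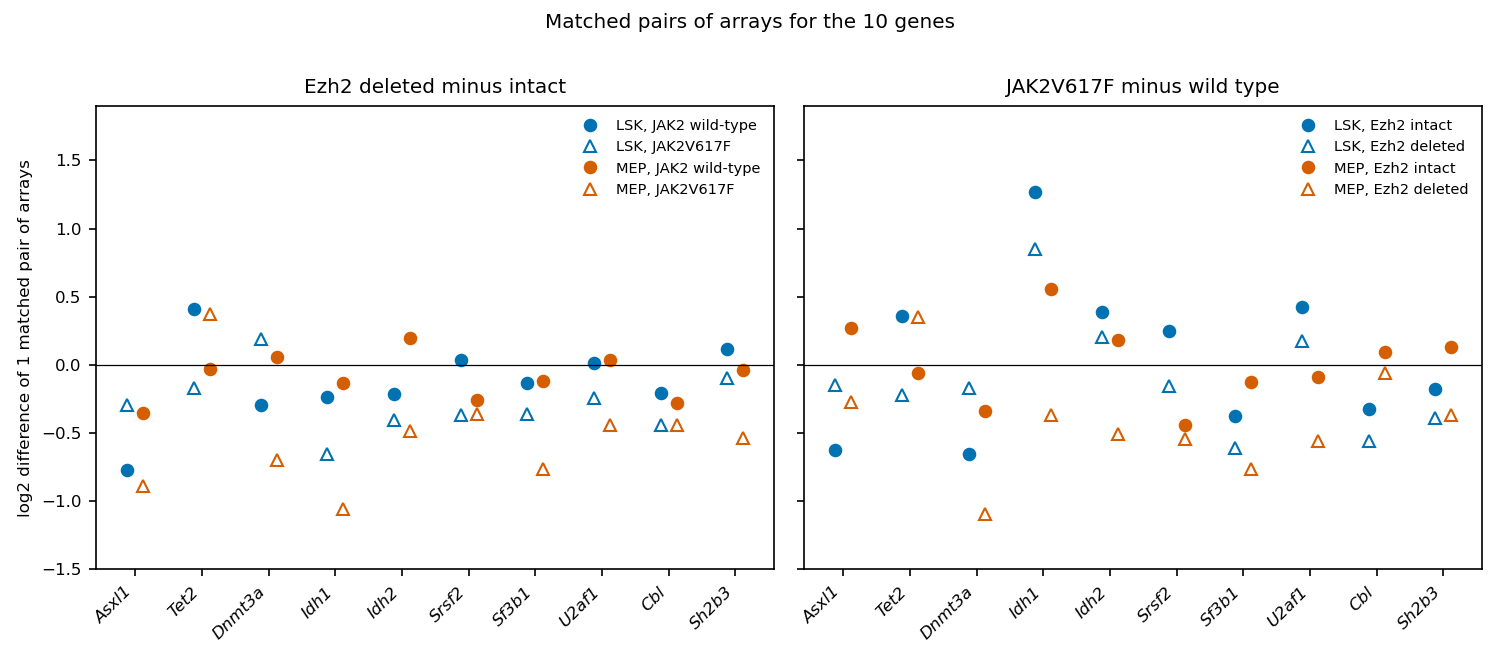
Log2 difference of each matched pair of arrays for the 10 genes (vertical axis), for Ezh2 deletion at left and JAK2V617F at right; colours are the cell types and open triangles the pairs on the background of the other mutation. Asxl1 has 4 of 4 pairs below zero at left, from -0.89 to -0.29, and Idh1 ranges from -0.37 to 1.27 at right.

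Within a cell type, limma called 0 of 10 for Ezh2 deletion in LSK cells (0.0986% of all genes) and in MEP (0.539%). For JAK2V617F it called 0 of 10 in LSK cells (0.174%) and in MEP (0.159%). In the same order, 0, 0, 1 and 1 of the 10 had an unadjusted p under 0.05, against 1249, 1722, 2354 and 1048 of 13183 genes. The 7 lists held no called gene for Ezh2 deletion or for JAK2V617F. Their median differences ran from -0.33 to -0.09 with Ezh2 deletion, against -0.10 for all genes, and from -0.22 to 0.06 with JAK2V617F, against 0.01.

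The double-mutant MEP array was the lowest of the 4 MEP arrays for 9 of 10 genes, all but Tet2, and this was so for 46.3% of all genes. It was the lowest of all 8 arrays for 7 of 10, against 22.9%. The double-mutant LSK array was the lowest of the LSK arrays for 5 of 10 (Asxl1, Srsf2, Sf3b1, Cbl and Sh2b3), against 22.5%. Of the probes on the double-mutant MEP array 44.1% were well above background, against 39.8% to 41.1% on the other MEP arrays; the part of this in the levels was not tested.

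With 1 array against 1 there is no test of double-mutant against WT. In MEP Dnmt3a alone was more than 2-fold apart, lower by 2.05-fold, where 5.49% of all genes were that far lower and 8.61% that far higher. Sf3b1 followed at -0.89 and Srsf2 at -0.80. In LSK cells 0 of 10 were more than 2-fold apart, against 6.04% of all genes higher and 2.84% lower, and Asxl1 came nearest at -0.92.

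No gene of the 10 showed a called interaction. The test of whether the Ezh2 difference depends on JAK2V617F called 0 of 10 and 0% of all genes, with 0 of 10 and 457 of 13183 at an unadjusted p under 0.05 and the lowest adjusted p of the 10 at 0.973 (limma). The fitted interaction was negative for 10 of 10 genes, and for 9 with quantile or array median scaling, where 56.8% of all genes were negative. Its 95% intervals reached up to 1.16 to either side. The tests of a difference between LSK and MEP also called 0 of 10, against 0.00759% of all genes for Ezh2 deletion and 0% for JAK2V617F. Without adjustment, 0 of 10 had p under 0.05 in either test, and 704 and 1523 of all genes did.

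The 3 genes with 2 probes could be read a second time. For U2af1 the probes are annotated to different transcripts, and the second was read at 2.24, 2.19, 2.58 and 2.24 in LSK cells and at 2.89, 2.84, 2.71 and 2.30 in MEP. It had the same low double-mutant MEP array and a difference between cell types of 0.37 ± 0.18, as the probe used above did. The second Srsf2 probe was read at 2.53, 2.60, 2.89 and 2.65 in LSK cells and at 3.38, 3.26, 3.21 and 3.13 in MEP, so that by this probe the cell types did not overlap. Its JAK2V617F difference was 0.03, against -0.22 by the probe used above, so the sign of that difference depends on the probe. The second Tet2 probe was read at -0.99, -0.55, -0.66 and -1.07 in LSK cells and at -1.81, -1.87, -1.64 and -1.53 in MEP, also without overlap.

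**Figure D5:**
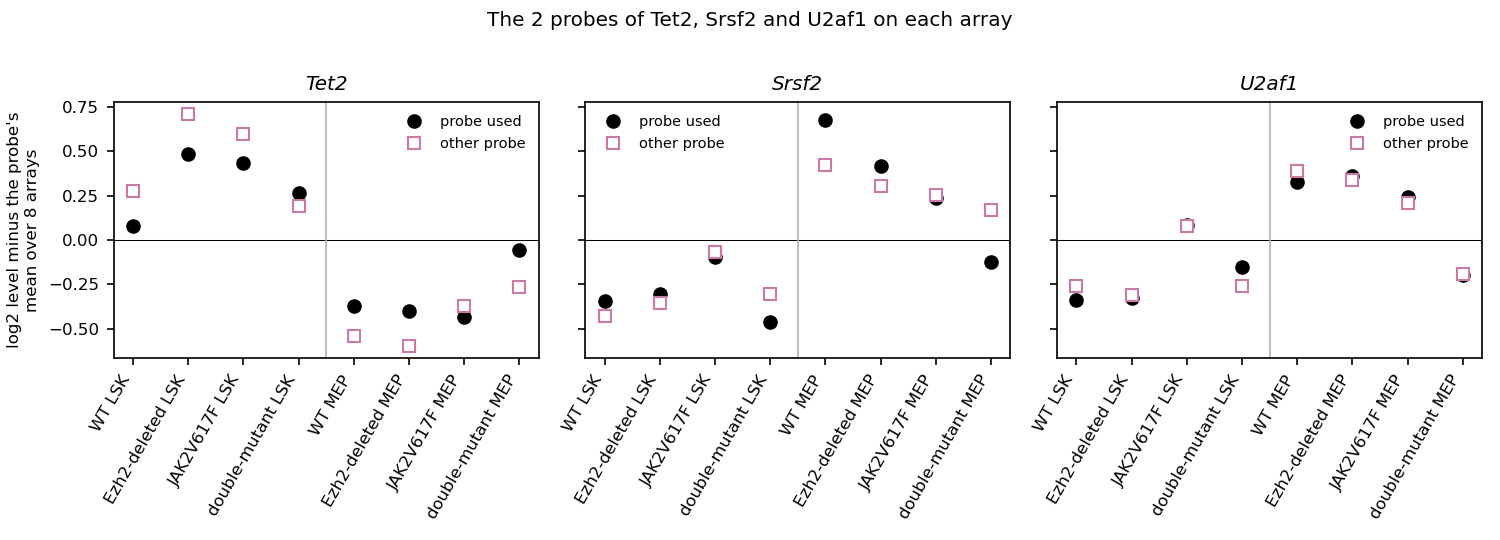
Level on each of the 8 arrays minus the probe's own mean (log2, vertical axis) for the probe used (filled circles) and the other probe (open squares) of Tet2, Srsf2 and U2af1. The probes of U2af1 nearly coincide, and those of Srsf2 part most on the double-mutant MEP array, at -0.12 by the probe used and 0.17 by the other, each from its own mean.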

How the data were processed

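One-colour Agilent mouse arrays of 8 groups were hybridised with Cy3-labelled RNA (20 ng). Per the file headers, the deposited intensity values were made with Feature Extraction 10.7.1.1, which subtracts background and does not normalize between arrays. The authors also deposited a table of linear ratios; by its values each is the processed signal divided by roughly the array's 75th percentile over probes. Probes (55681) were named through RefSeq accessions; 27509 matched. Processed signals were averaged over spots, non-uniform spots left out, log2-transformed and set against the array's 75th percentile over spots. A gene was read from the probe with the highest mean processed signal and tested if that probe was well above background on at least 2 arrays.

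limma 3.58.1 in R 4.3.3 fitted cell type, Ezh2 and JAK2V617F additively over all 8 arrays, with nested and interaction fits for differences; p was adjusted by Benjamini-Hochberg over 13183 genes (threshold 0.05). Each group has 1 array, so the spread comes from departures from the fitted effects, and the number of arrays limits the precision. Double-mutant and WT were compared by a 2-fold rule. The text names all members, Ezh2, Jak2, up to 4 called genes a list and direction, and for 5 members the 2 genes of nearest pattern; Dnmt1, Bap1, Xist, Eif2s3y and the genes whose call changed with scaling were chosen after their values were seen. A few genes this rule covers are not reported here. The members and lists were chosen with earlier results of these data known. Other settings, among them normexp (offset 50) on median spot signals, are in the closing section.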

Additional observations from a re-analysis of the deposited data

How the results depend on the processing

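No analysis paired by replicate number was possible, because every group has 1 array, numbered 1. With the genotypes as blocks, a fit added after seeing the data, the same count of 7 was called between the cell types. In all 10 tests, the counts of called genes among the 10 were within 1.5 times the reported ones under each of these settings: normexp, quantile normalization, the series table, no filter or a filter on all 8 arrays, non-uniform spots kept, averaged or other probes, an adjusted p under 0.10, a variance prior with a trend, array median scaling and, added after seeing the data, the 75th percentile over probes. For the 4 tests within a cell type, all these were added after seeing the data. Leaving out 1 array gave 5 to 7 called between the cell types and 0 for the other 9 tests. Without a test, the double-mutant array of LSK cells had 1 gene past 2-fold with quantile normalization (Asxl1) in place of 0, and that of MEP 0 with normexp in place of 1. Reversed values were, with JAK2V617F, Idh2 with quantile normalization (-0.080) and without JAK2V617F LSK (-0.035 to 0.23 over the left-out arrays), U2af1 without WT, Ezh2-deleted or double-mutant MEP (-0.13 to 0.14 over the left-out arrays), and Srsf2 by its other probe (0.027). For JAK2V617F in MEP, Idh1 reversed with quantile normalization (-0.030) and without the WT or the JAK2V617F MEP array (-0.37 to 0.56 over the left-out arrays). None of these was called, and the cause was not tested. Over all genes, calls ran from 4726 to 9752 between cell types, 32 to 217 for Ezh2 deletion and 16 to 120 for JAK2V617F; leaving out 1 array, from 3645 to 5863, 12 to 102 and 0 to 42, the fewest without the double-mutant MEP array for the last pair. Idh1 was not tested under the filter on all 8 arrays. Signal near background on MEP arrays limits Idh1, and 1 array per group limits every genotype comparison.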
